A study of Mus musculus with 32 samples.

Results

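The response of mouse liver RNA to cisplatin was measured in 4 of the 32 libraries of the series: 2 libraries of livers from control mice and 2 of livers from mice given cisplatin, chosen by their labels. All 4 came from female C57BL/6J mice of 6 to 7 months that weighed 25 to 28 g. Treated mice received 10 mg/kg cisplatin into the peritoneum, and control mice received saline (154 mM) by the same route. The protocol places the injection at ZT1 and tissue collection at ZT5 (zeitgeber time, hours after lights on), whereas a separate label field gives a time after treatment of 2 h. Poly-A RNA was sequenced as 50-bp paired ends, and each value is a count of reads per gene, so that levels below are given as CPM (a gene's reads per 1000000 reads on genes, after TMM scaling between libraries). The study describes its replicates as biological, and nothing in the labels says whether a control and a treated mouse of the same replicate number were related in any other way.

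Cisplatin binds adjacent purines of a DNA strand and forms intrastrand crosslinks, which block elongating RNA polymerase II and are removed by nucleotide excision repair, in part coupled to transcription. Stalled polymerase and unrepaired adducts activate p53 and stress kinases, which induce short, fast-responding genes. The liver takes up platinum from the blood, and its hepatocytes carry out bile acid, cholesterol, fatty acid and glucose metabolism and secrete most plasma proteins.

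The 4 liver libraries held between 29334655 and 48525522 reads on genes, and 13868 of the 25059 genes in the files passed the filter on low counts. Hepatocyte markers such as Alb and Ttr dominated every library, with a summed level between 69206 and 155934 CPM, and 0 of the 7 markers rose or fell. The control library of replicate 1 stood apart in acute phase genes, which hepatocytes induce in inflammation. Saa1, an acute phase apolipoprotein, was at 7173 CPM in that library, 27.3 CPM in the other control library, and 39.0 and 85.6 CPM in the cisplatin libraries. Lcn2, an iron-scavenging acute phase protein, was at 703 CPM there and at 7.63, 14.9 and 25.9 CPM in the other control library and the cisplatin libraries of replicates 1 and 2. Of the 23 acute phase genes tested, 15 were highest in this control library, which was highest for 24.2% of all genes tested. Results that turn on it are given below with and without it. Markers of lung epithelium also moved with treatment at low levels: their summed level was 6.91 and 4.18 CPM in the control libraries and 18.3 and 29.7 CPM in the cisplatin libraries, 3 of 3 (Sftpa1, Sftpc, Scgb1a1) rose, and their part in any other result was not tested. Of the markers of 12 further cell types, such as sinusoidal endothelial cells, stellate cells and kidney tubule, 1 (the Kupffer cell marker Marco) rose and 0 fell. Marco was at 18.6 and 13.2 CPM in the controls and at 129 and 16.9 CPM in the cisplatin libraries of replicates 1 and 2. Its rise was thus mostly in replicate 1, and the other Kupffer cell markers were not called. The kidney tubule markers summed to 10.3 and 2.09 CPM in the controls and 3.30 and 31.4 CPM after cisplatin. In bulk tissue, fewer cells of a type and less RNA per cell cannot be told apart.

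After cisplatin, 220 genes rose and 795 fell in liver, 1.59% and 5.73% of the 13868 genes tested (7.32% in all), and 1.49% and 6.03% of those that are protein coding. The genes that rose were led by Dusp8, Cidec, Tsku, Tnfrsf12a and the p53 target Cdkn1a. Those that fell were led by Esrrg, Nr3c2, Sox5 and other very long genes. Calls are from edgeR's quasi-likelihood fit, with the replicate number as a block and fold changes tested against 0.4 on the log2 scale, at a Benjamini-Hochberg adjusted p below 0.05. The edgeR calls rested on this block when all 4 libraries were fitted. Without it the same test called 0 genes, although 1287 had an unadjusted p below 0.05 and the lowest adjusted p was 0.0911, whereas DESeq2 called 364 genes with the block (2.67%; 0.47% higher and 2.2% lower) and 188 without it (1.34%; 0.193% higher and 1.15% lower). Tested against 0 with the block, edgeR called 11% of genes, 2.91% higher and 8.1% lower.

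Each replicate pair gave its own estimate of the change (cisplatin minus control, log2 CPM). In pair 1, 621 genes were higher and 1348 lower by at least 1 on the log2 scale, and in pair 2, 1300 were higher and 2033 lower. Across the 13868 genes the changes of the pairs correlated (Pearson 0.491, Spearman 0.479), and 67.3% had the same sign in both pairs. With the pairs crossed, so that each cisplatin library was set against the control of the other number, the values were 0.149, 0.0528 and 48.2%. These coefficients are across genes, which are not independent replicates. All 220 genes that rose had the same sign in both pairs, and 217 of them were higher in both cisplatin libraries than in both control libraries. Among the 795 genes that fell, 793 had the same sign in both pairs and 767 were lower in both cisplatin libraries than in both controls. Over all genes tested, 19.2% and 22.8% had groups that did not overlap with cisplatin higher and lower. The called genes were chosen from these same 4 libraries by a fit that favours similar changes in both pairs. Their agreement and separation are thus no separate check of the calls. The 2 genes that fell with opposite signs in the pairs were Orm2 and Prtn3. Orm2, an acute phase protein, was at 617 CPM in the control library of replicate 1 and at 24.6 CPM in the other control library, against 8.37 and 28.3 CPM in the cisplatin libraries. Prtn3, a neutrophil granule protease, was at 15.5 CPM in the control library of replicate 1 and at 0.180 CPM in the other, against 0.174 and 0.338 CPM in the cisplatin libraries. Both falls were present in pair 1 alone, and their pair 2 changes were 0.20 and 0.75. Without the control library of replicate 1, Orm2 was at -0.44.

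**Figure D1:**
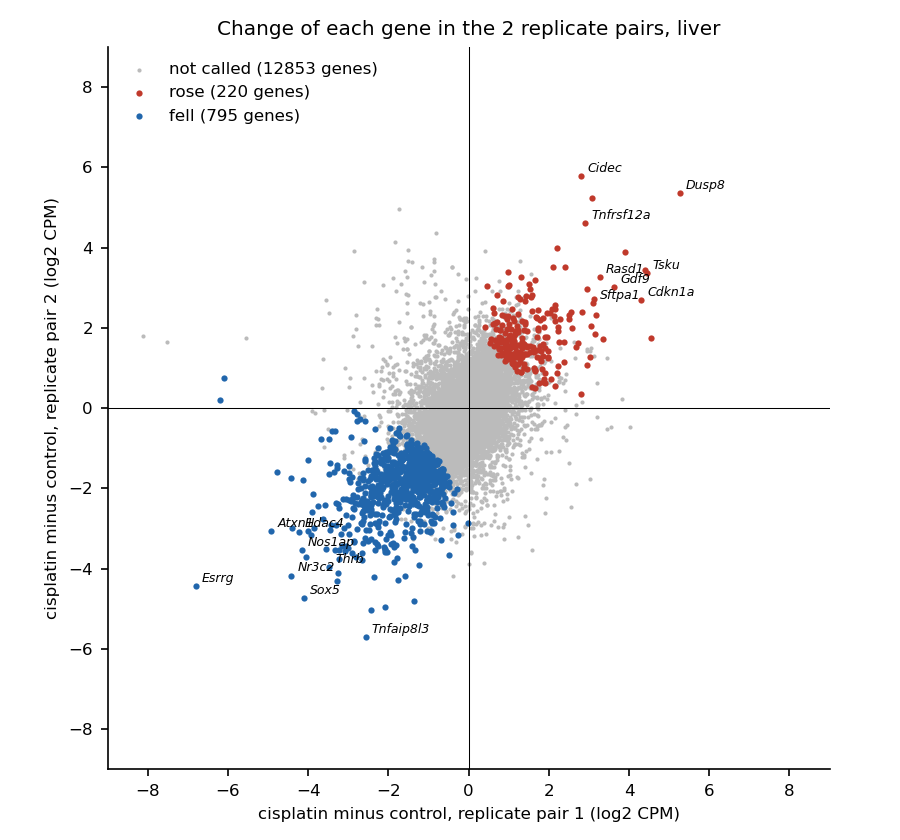
Change of each of the 13868 genes tested in replicate pair 1 (x axis) and pair 2 (y axis), each as cisplatin minus control in log2 CPM; red points are the 220 genes that rose, blue points the 795 that fell and grey points the genes not called. The called genes lie in the lower left and upper right corners except for 2 blue points above 0 in pair 2, and they were called from these same libraries.

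The largest rise was that of Dusp8, a phosphatase that dephosphorylates the stress kinases JNK and p38. Dusp8 was at 0.178 and 0.539 CPM in the control libraries and at 8.80 and 24.3 CPM in the cisplatin libraries of replicates 1 and 2, a log2 fold change of 5.53 ± 0.43 (SE; 46.3-fold; adjusted p = 8.6e-13). The lower cisplatin library lay far above the higher control library. Cidec, a lipid droplet protein that enlarges droplets, was at 1.27 and 1.26 CPM in the controls and at 9.15 and 71.5 CPM after cisplatin (log2 fold change 4.37 ± 0.45, adjusted p = 2.2e-09). Its rise was uneven, 2.80 in pair 1 and 5.77 in pair 2. Tsku, a secreted protein made by hepatocytes, had the highest level per kb of exon among the 15 genes with the largest rise (46.0 CPM per kb over the 4 libraries). It went from 8.33 and 32.7 CPM to 182 and 338 CPM (log2 fold change 3.90 ± 0.34, adjusted p = 3.4e-11). Tnfrsf12a, the receptor for the cytokine TWEAK, went from 4.07 and 4.60 CPM to 30.9 and 114 CPM (3.78 ± 0.35, adjusted p = 1.6e-10). On the log2 scale the groups of both genes were separated by more than the distance between the 2 libraries of a group.

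The remaining genes of the 15 with the largest rise spanned log2 fold changes from 2.45 for Cgref1 to 3.55 for Gdf9, a growth factor of the transforming growth factor beta family known from the oocyte. Rasd1, a small GTPase induced by glucocorticoids, was at 0.289 and 0.202 CPM in the controls and at 3.24 and 2.40 CPM after cisplatin (3.51 ± 0.59, adjusted p = 6.8e-05), with nearly the same change in both pairs (3.27 and 3.27). Ppp1r3g, a glycogen-targeting subunit of protein phosphatase 1, overlapped between groups. It was at 0.222 and 2.65 CPM in the controls and at 1.56 and 14.2 CPM after cisplatin, so that only the comparison within pairs separated it (2.56 and 2.40 in the pairs), and without the cisplatin library of replicate 2 it was at 0.12. Sftpa1, a lung surfactant protein that is among the lung markers above, went from 0.578 and 0.449 CPM to 5.39 and 3.01 CPM. The others were AA986860, Lor, a protein of the cornified epidermis, Myom1, a sarcomere protein, and Fgf21, Cdkn1a and Per1, which are described below with their lists.

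**Figure D2:**
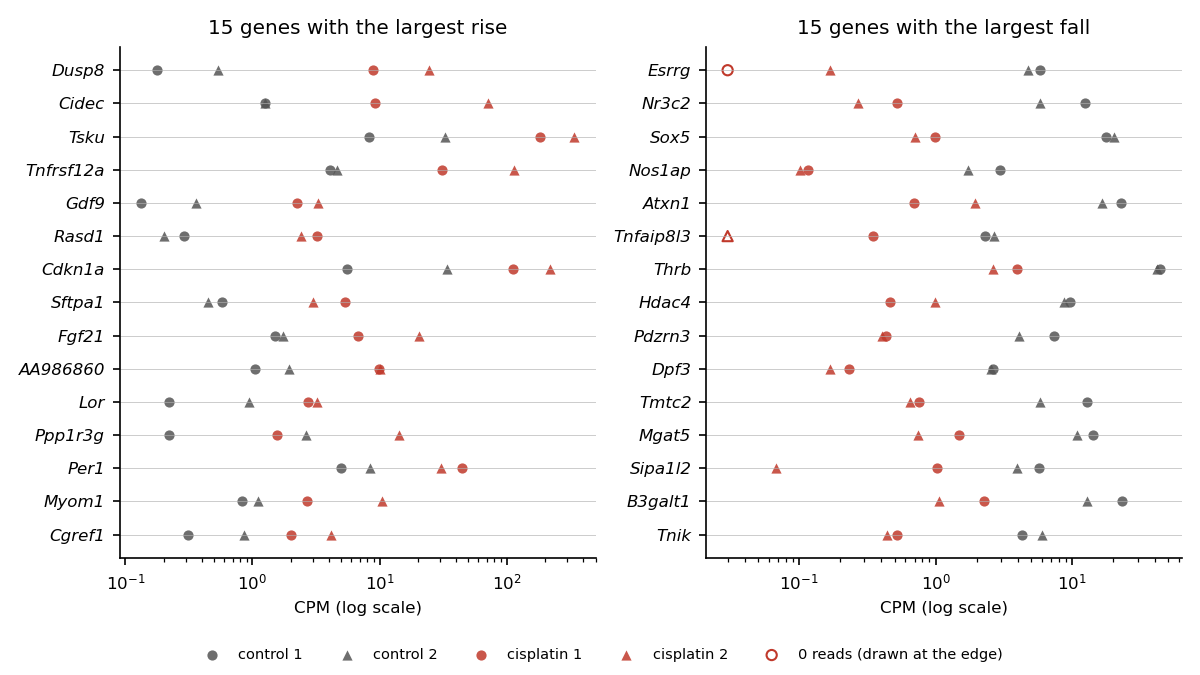
Level of the 15 genes with the largest rise (left) and the 15 with the largest fall (right) in each of the 4 liver libraries, in CPM on a log scale; grey marks are control and red marks cisplatin libraries, circles replicate 1 and triangles replicate 2, and an open mark at the edge is a library with 0 reads. The groups do not overlap except for Ppp1r3g.

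The genes with the largest fall were nearly all long. Esrrg, an orphan nuclear receptor that spans 606 kb of the genome, was at 5.76 and 4.74 CPM in the controls and had 0 and 5 reads (0 and 0.169 CPM) in the cisplatin libraries, a fitted log2 fold change of -6.03 ± 0.67 (adjusted p = 1.5e-08) that depends on the prior count since 1 library was at 0. Nr3c2, the mineralocorticoid receptor (346 kb), went from 12.3 and 5.79 CPM to 0.521 and 0.271 CPM (-4.49 ± 0.46, adjusted p = 2.2e-09). Sox5, a transcription factor (954 kb), went from 17.7 and 20.2 CPM to 0.985 and 0.711 CPM (-4.48 ± 0.39, adjusted p = 3.4e-11). In all 3 genes both cisplatin libraries lay far below both controls. Thrb, the thyroid hormone receptor beta that is the main receptor form of hepatocytes (378 kb), had the highest level per kb of exon among these 15 genes (3.13 CPM per kb over the 4 libraries). It was at 44.1 and 42.0 CPM in the controls and at 3.91 and 2.64 CPM after cisplatin (-3.74 ± 0.34, adjusted p = 1.0e-10). Hdac4, a class II histone deacetylase (267 kb), went from 9.62 and 8.69 CPM to 0.463 and 0.981 CPM (-3.72 ± 0.43). Atxn1, a transcriptional corepressor (415 kb), went from 22.6 and 16.5 CPM to 0.695 and 1.93 CPM (-3.99 ± 0.41). Tnfaip8l3 was the only gene among these 15 shorter than 100 kb (45.0 kb), and it had 12 and 0 reads in the cisplatin libraries against 2.31 and 2.67 CPM in the controls. Its groups were separated as well. Nos1ap, Pdzrn3, Dpf3, Tmtc2, Mgat5, Sipa1l2, B3galt1 and Tnik, which span 152 to 557 kb, had log2 fold changes between -4.37 and -3.38.

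The genes were grouped into 25 lists by pathway or cell function, with 566 distinct members tested, of which 47 rose and 49 fell. The fitted median over all genes tested was 0.0085, and list medians below are read against it. Values given without 1 library are from fits of the 3 others without the block, where the median over all genes was 0.06 without the control library of replicate 1. The lists were chosen with earlier results of these data known, so that their counts describe the response and do not test it.

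**Figure D3:**
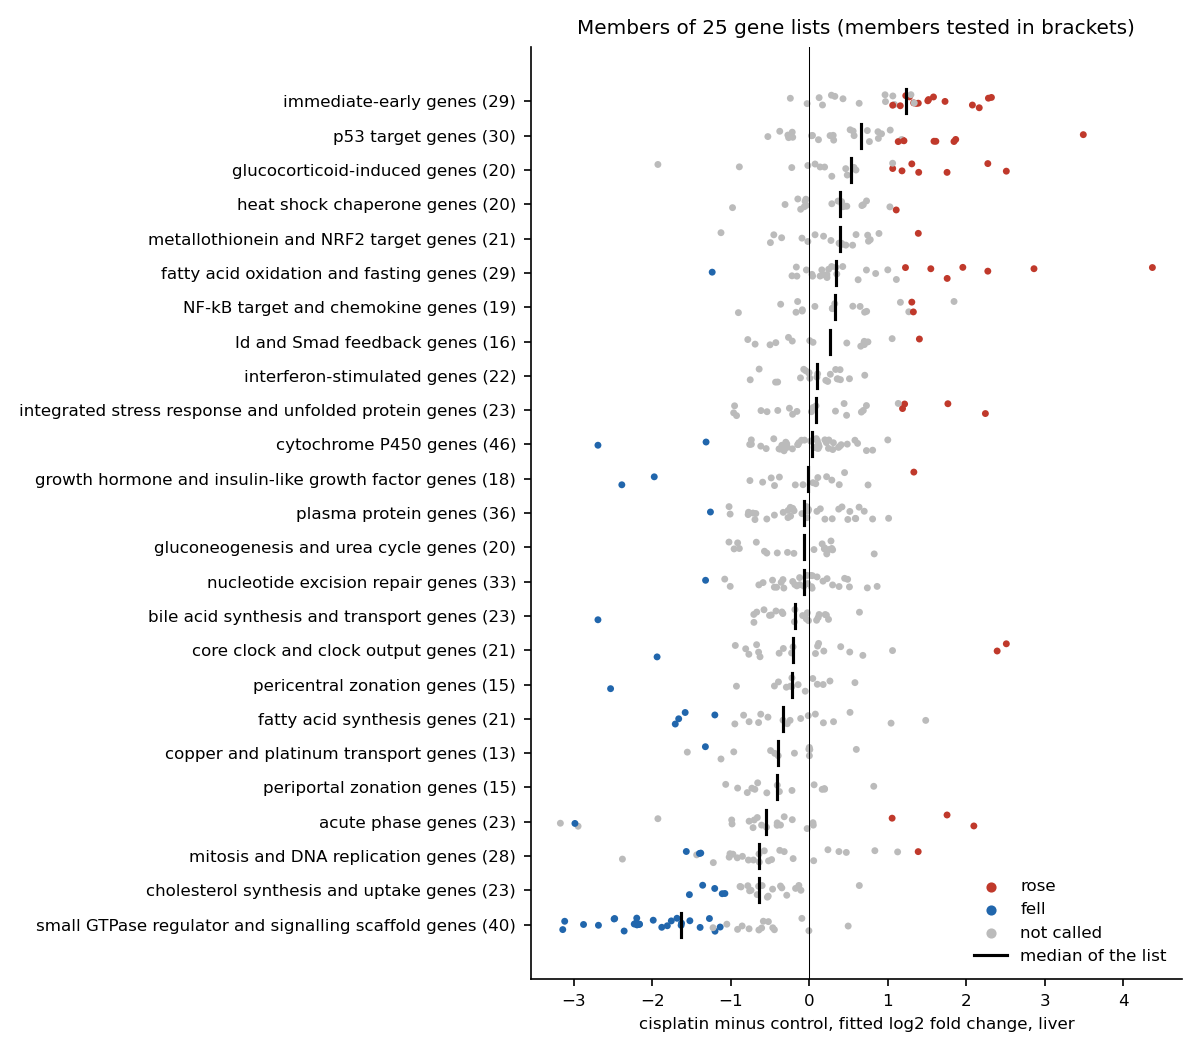
Fitted log2 fold change (cisplatin minus control, x axis) of each tested member of 25 gene lists (y axis, number tested in brackets); red points rose, blue points fell, grey points were not called, and the black bar is the median of the list. Immediate-early genes have the highest median (1.23) and small GTPase regulators the lowest (-1.63).

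Among p53 target genes, 8 of 30 tested rose, 0 fell, and the median change was 0.65. Cdkn1a, which encodes the cyclin-dependent kinase inhibitor p21, was at 5.58 and 34.1 CPM in the controls and at 111 and 220.4 CPM after cisplatin (log2 fold change 3.49 ± 0.34, adjusted p = 1.0e-09). The control libraries differed from each other by more, in proportion, than the cisplatin libraries did, and the groups did not overlap. Its value was 2.28 without the control library of replicate 1 and 4.88 without that of replicate 2. Phlda3, an inhibitor of Akt, went from 1.16 and 2.56 CPM to 4.49 and 8.80 CPM (1.86 ± 0.39). Plk3, a stress-responsive polo-like kinase, went from 14.1 and 12.4 CPM to 46.7 and 48.2 CPM (1.84 ± 0.30), nearly equal within each group. Gdf15, a secreted stress cytokine, went from 4.05 and 4.83 CPM to 7.59 and 23.7 CPM (1.61 ± 0.35), most of it in pair 2. Eda2r, Aen, Sesn2 and Btg2 also rose. The p53 regulator Mdm2 and the apoptosis genes Bax, Pmaip1 and Bbc3 did not pass, with fitted log2 fold changes of 0.87, 0.92, 0.88 and -0.38. Thus 24 of the 30 were above 0, and 23 of them were higher in both pairs.

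Immediate-early genes, which are induced without new protein synthesis, had the largest share of calls among the rising lists: 15 of 29 tested rose, 0 fell, and 25 were higher in both pairs. Jun, a subunit of the AP-1 transcription factor, was at 7.31 and 7.61 CPM in the controls and at 32.5 and 42.6 CPM after cisplatin (log2 fold change 2.32 ± 0.31, adjusted p = 3.2e-06). Atf3, a stress-induced transcription factor, went from 1.87 and 1.53 CPM to 5.50 and 12.3 CPM (2.28 ± 0.40, adjusted p = 0.00021). Ccn2, a matricellular growth factor, went from 2.96 and 5.54 CPM to 24.5 and 13.6 CPM (2.16 ± 0.37, adjusted p = 0.00015). The cisplatin libraries of these 3 genes lay above both controls, with replicate 1 the higher in Ccn2 and replicate 2 in the other two. Klf10, a zinc finger factor also known as an early response gene of transforming growth factor beta, went from 20.2 and 27.8 CPM to 73.7 and 68.3 CPM (1.58 ± 0.28). Fos, Jund, Egr1, Ier2, Ier3, Myc, Klf2, Klf4, Klf6, Dusp1 and Rhob rose as well. Fosb and Zfp36 were at -0.24 and -0.03, and Nr4a1, Nr4a2 and Nr4a3, orphan nuclear receptors, were at 1.06, 1.08 and 1.29 without passing.

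The promoters of the rising genes were searched for short motifs that bind factors of these pathways, in windows from 250 bases before to 50 bases after each RefSeq transcription start (GRCm38.p6), on both strands. Windows were found for 165 of the 220 genes that rose and 599 of the 795 that fell. The cAMP response element TGACGTCA, bound by CREB and ATF factors, was present in 13 of 194 windows of genes that rose (6.70%), in 16 of 832 windows of genes that fell (1.92%), and in 393 of 13680 windows of genes tested (2.87%). The composite element TGATGNAAT, bound by C/EBP and ATF dimers, was present in 4 windows of genes that rose (2.06%) and in 0.526% of windows of genes tested. The glucocorticoid response element, a palindrome that the glucocorticoid receptor binds, was present in 4 windows of genes that rose (2.06%), in 0 of 832 of genes that fell, and in 0.336% of those tested. The 4 windows were those of Jund, Map3k6, Slc10a6 and Txnip, none of them among the glucocorticoid-induced genes that rose, described below. The E-box CACGTG, bound by clock and Myc factors, was present in 13.4%, 7.57% and 9.58% of the windows of genes that rose, fell and were tested, and the CArG box, bound by serum response factor, in 2.06%, 0.962% and 1.28%. Of the 15 immediate-early genes that rose, 10 had a window, with 10 windows in all. Of these windows, 1 held the cAMP response element, 0 the composite element, 1 the glucocorticoid response element, 3 the E-box and 0 the CArG box. Genes without a window and sites farther from the start were not searched, so these counts cannot show that a motif is absent. Sites of different motifs overlapped in 0 windows of genes that rose, and a match describes letters in a window, not a bound site. Over all 32851 windows in the table, the shares were 1.79%, 0.965%, 0.475%, 7.15% and 1.63% in the order given. The windows of Dusp8 (the largest rise), Dusp1 (the phosphatase of the same family among the immediate-early genes), Btg2 (a p53 target) and Ppp1r15a (a stress response gene below) are shown because each holds the cAMP response element, in capitals. They lie at chr7:142095235-142095534, chr17:26508423-26508722, chr1:134079106-134079405 and chr7:45526219-45526518, all on the minus strand, and read 5′ to 3′ in the direction of the gene. The element begins 107 and 63 bases before the start in Dusp8, and 143, 166 and 12 bases before it in Dusp1, Btg2 and Ppp1r15a.
Dusp8: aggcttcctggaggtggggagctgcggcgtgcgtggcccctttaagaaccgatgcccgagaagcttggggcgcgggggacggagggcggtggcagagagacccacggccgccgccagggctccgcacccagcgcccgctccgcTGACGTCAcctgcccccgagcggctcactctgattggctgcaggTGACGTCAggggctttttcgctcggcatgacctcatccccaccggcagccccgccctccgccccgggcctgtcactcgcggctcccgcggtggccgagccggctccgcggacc
Dusp1: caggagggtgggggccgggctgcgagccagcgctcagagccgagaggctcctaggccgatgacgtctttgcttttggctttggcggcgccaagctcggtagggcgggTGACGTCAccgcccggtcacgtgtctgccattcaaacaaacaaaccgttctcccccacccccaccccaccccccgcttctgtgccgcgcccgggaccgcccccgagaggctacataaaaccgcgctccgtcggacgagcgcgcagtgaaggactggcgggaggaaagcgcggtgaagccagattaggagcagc
Btg2: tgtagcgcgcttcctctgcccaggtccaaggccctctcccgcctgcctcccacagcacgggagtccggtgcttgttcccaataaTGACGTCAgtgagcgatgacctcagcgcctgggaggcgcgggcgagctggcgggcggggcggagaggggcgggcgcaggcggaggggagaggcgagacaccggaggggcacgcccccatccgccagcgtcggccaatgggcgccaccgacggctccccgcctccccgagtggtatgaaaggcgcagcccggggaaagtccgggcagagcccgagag
Ppp1r15a: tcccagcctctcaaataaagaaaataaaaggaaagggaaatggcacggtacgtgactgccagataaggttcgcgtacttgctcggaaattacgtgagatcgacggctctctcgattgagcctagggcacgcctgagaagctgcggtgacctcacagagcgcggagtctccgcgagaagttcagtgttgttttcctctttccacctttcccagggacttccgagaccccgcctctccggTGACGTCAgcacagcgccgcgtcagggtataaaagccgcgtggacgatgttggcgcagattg

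Among genes induced by glucocorticoids, the adrenal stress hormones, 7 of 20 tested rose and 0 fell, with a median of 0.53 (1.03 without the control library of replicate 1). Angptl4, a secreted inhibitor of lipoprotein lipase, was at 50.4 and 86.6 CPM in the controls and at 214 and 477 CPM after cisplatin (log2 fold change 2.27 ± 0.31, adjusted p = 3.9e-06). Cebpd, a transcription factor of the acute phase response, went from 4.13 and 4.44 CPM to 13.6 and 15.4 CPM (1.75 ± 0.33), with a similar change in each pair (1.71 and 1.78). Klf9, a glucocorticoid-induced zinc finger factor, went from 54.1 and 98.2 CPM to 147 and 249 CPM (1.39 ± 0.29). Tsc22d3 (GILZ), Nfkbia, Dusp1 and Per1 made up the rest of those that rose. The liver enzyme gene Tat (-0.89), the stress kinase Sgk1 (0.59) and the chaperone Fkbp5 (0.46) did not pass, nor did Lcn2 (-1.93), which was high in the control library of replicate 1.

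Of the 21 core clock and clock output genes tested, 2 rose and 1 fell, with a median of -0.21. Per1, a repressor of the clock that also answers acute signals, was at 4.98 and 8.39 CPM in the controls and at 44.8 and 30.4 CPM after cisplatin (log2 fold change 2.51 ± 0.33, adjusted p = 2.3e-06). Both cisplatin libraries were above both controls. Ciart, another clock repressor, went from 0.333 and 0.224 CPM to 1.53 and 1.39 CPM (2.39 ± 0.67, adjusted p = 0.022). Npas2, an activator of the clock (170 kb), went from 7.62 and 12.9 CPM to 4.69 and 1.29 CPM (-1.94 ± 0.43, adjusted p = 0.0043), with a small change in pair 1 (-0.69) and a large change in pair 2 (-3.28). The other core genes did not pass: Arntl was at -0.77, Clock at -0.67, Per2 at -0.38, Cry1 at -0.21 and Nr1d1 at -0.23.

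Lipid metabolism genes were called in both directions. Of the 29 genes of fatty acid oxidation and fasting tested, 7 rose and 1 fell (median 0.34). Fgf21, a fasting hormone secreted by hepatocytes, was at 1.51 and 1.75 CPM in the controls and at 6.72 and 20.5 CPM after cisplatin (log2 fold change 2.86 ± 0.39, adjusted p = 2.1e-06). Acot1, a cytosolic acyl-CoA thioesterase, went from 16.8 and 52.0 CPM to 80.3 and 164 CPM (1.95 ± 0.29, adjusted p = 2.2e-05). Its controls differed widely from each other, and the groups did not overlap. The lipid droplet coats Plin2 and Plin5, the thioesterase Acot2, Angptl4 and Cidec also rose. Plin2 went from 463 and 638 CPM to 924 and 2731 CPM (1.55 ± 0.36), with the larger change in pair 2 (2.10, against 1.00 in pair 1). The enzymes of beta-oxidation themselves were close to 0: Cpt1a was at -0.17, Acadm at 0.23 and Hadha at 0.04. Ppargc1a, a coactivator of mitochondrial genes (113 kb), fell from 10.5 and 9.29 CPM to 6.00 and 2.88 CPM (-1.24 ± 0.35, adjusted p = 0.044).

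In cholesterol synthesis and uptake, 0 of 23 tested rose and 5 fell, with 22 below 0 and a median of -0.65. Insig1, which retains the sterol sensor in the endoplasmic reticulum and is itself a sterol-responsive gene, fell from 412 and 586 CPM to 162 and 227 CPM (log2 fold change -1.36 ± 0.31, adjusted p = 0.0084). Its changes were the same in both pairs (-1.35 and -1.37). Mvd fell almost wholly in pair 1, where its change was -2.78 against -0.33 in pair 2, and was at -0.09 without the cisplatin library of replicate 1. The list was less uniform by pair than by sign, with a median of -0.84 in pair 1 and -0.24 in pair 2 and 14 of 23 members lower in both.

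Fatty acid synthesis had 4 of 21 members that fell and 0 that rose (median -0.33, and -0.96 without the control library of replicate 1). Elovl6, a fatty acid elongase (106 kb), fell from 168 and 529 CPM to 58.0 and 172 CPM (log2 fold change -1.58 ± 0.30, adjusted p = 0.0012). Its groups overlapped, since the lower control and the higher cisplatin library were nearly equal, and it was called through its pair changes of -1.54 and -1.62. It was at -2.21 and -0.56 without the control library of replicate 1 and 2. Acaca, the acetyl-CoA carboxylase of the cytosol (272 kb), fell from 68.6 and 212 CPM to 33.6 and 43.2 CPM (-1.66 ± 0.31), with -2.46 and -0.84 without the control library of replicate 1 and 2. Acacb (104 kb) and Gpam, which makes the first step of triglyceride synthesis, fell as well, Gpam with changes of -0.27 and -3.16 in the pairs. Fasn, Scd1 and Acly were at -0.95, -0.84 and -0.77 and did not pass, and Lpin1 was at 1.48 from changes of opposite sign.

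Bile acid synthesis and transport had 1 member of 23 called. Cyp7a1, the rate-limiting enzyme of bile acid synthesis, was at 375 and 71.0 CPM in the controls and at 50.6 and 12.6 CPM after cisplatin (log2 fold change -2.69 ± 0.31, adjusted p = 8.0e-08). Each cisplatin library was far below the control of the same number (-2.89 and -2.49), and both were below both controls. Its level was highest in the control library that stood apart, and without that library its value was -1.13 (adjusted p = 1). Cyp7b1, Cyp8b1 and Cyp27a1, the other main hydroxylases of the pathway, were at -0.35, 0.22 and 0.11, and the nuclear receptors Nr1h4 and Nr0b2 at -0.34 and 0.09. Among 46 cytochrome P450 genes, Cyp7a1 and Cyp26a1, a retinoic acid hydroxylase, fell and 0 rose (median 0.04, and -0.10 without the control library of replicate 1). Cyp26a1 was at 5.58 and 29.6 CPM in the controls and at 3.10 and 8.80 CPM after cisplatin, so its groups overlapped and its call rested on the pairs (log2 fold change -1.31 ± 0.33). Without the control library of replicate 2 it was at 0.08.

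Most hepatocyte output genes did not pass. Of 36 plasma protein genes, 1 fell and 0 rose (median -0.06). Of 20 gluconeogenesis and urea cycle genes 0 were called (median -0.07, and -0.23 without the control library of replicate 1). Cps1, the first enzyme of the urea cycle, was at 4098 and 4543 CPM in the controls and at 3041 and 1727 CPM after cisplatin, with a log2 fold change of -0.91 ± 0.36 (adjusted p = 0.22). Ass1 was at 1994 and 3231 CPM against 1428 and 2563 CPM. Of 15 periportal genes 0 were called, and of 15 pericentral genes Lgr5, a receptor of Wnt-amplifying R-spondins (137 kb), fell from 10.3 and 6.78 CPM to 2.66 and 0.711 CPM (-2.53 ± 0.40, adjusted p = 4.6e-05). Glul and Axin2, other pericentral genes, were at -0.39 and 0.04.

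Acute phase genes depended on the control library that stood apart. Of 23 tested, 3 rose and 1 fell, and the median was -0.55 (-1.18 in pair 1, 0.35 in pair 2, and 0.19 without the control library of replicate 1). Cebpb, a transcription factor of the acute phase response, rose from 12.2 and 17.2 CPM to 40.6 and 94.5 CPM (log2 fold change 2.10 ± 0.29, adjusted p = 8.2e-06), and Cebpd and Il6ra, the interleukin-6 receptor, rose with it. Their effector genes did not pass, apart from Orm2 above. Saa1 and Saa2 were at -2.94 ± 1.49 and -3.17 ± 1.71, and their pairs had opposite signs (-7.52 and 1.65 for Saa1). The metallothioneins Mt1 and Mt2, which bind metals including platinum, behaved in the same way: Mt1 was at 740 and 68.5 CPM in the controls and at 155 and 321 CPM after cisplatin, a change of -2.26 in pair 1 and 2.22 in pair 2. Hence no direction can be given for metallothioneins from these 4 libraries. Of the other metallothionein and NRF2 target genes, Srxn1, which repairs oxidized peroxiredoxins, rose from 33.2 and 44.9 CPM to 66.5 and 153 CPM (1.39 ± 0.29), and 1 of 21 was called in all (median 0.39, and 0.20 without the control library of replicate 1).

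Genes of the integrated stress response and unfolded protein response had 4 of 23 members that rose and 0 that fell, with a median of 0.09 (-0.22 without the control library of replicate 1). Trib3, a pseudokinase induced by ATF4, was at 3.25 and 5.93 CPM in the controls and at 8.69 and 25.3 CPM after cisplatin (log2 fold change 1.76 ± 0.34, adjusted p = 0.0009). Nupr1, a stress-induced chromatin protein, went from 1.29 and 1.08 CPM to 3.94 and 7.92 CPM (2.24 ± 0.43, adjusted p = 0.00079), and Ppp1r15a, the phosphatase subunit that reverses the integrated stress response, from 6.78 and 7.56 CPM to 14.2 and 19.4 CPM (1.21 ± 0.32). Sesn2 is also among the p53 targets. The chaperones Hspa5 and Hyou1 of the endoplasmic reticulum were at -0.40 and -0.96, and the amino acid synthesis genes Asns and Psat1 at 0.05 and 0.08. The windows of Fgf21 and Nupr1, at chr7:45615441-45615740 and chr7:126625421-126625720 on the minus strand, are shown because they hold the C/EBP and ATF element (capitals), which begins 140 and 111 bases before the start.
Fgf21: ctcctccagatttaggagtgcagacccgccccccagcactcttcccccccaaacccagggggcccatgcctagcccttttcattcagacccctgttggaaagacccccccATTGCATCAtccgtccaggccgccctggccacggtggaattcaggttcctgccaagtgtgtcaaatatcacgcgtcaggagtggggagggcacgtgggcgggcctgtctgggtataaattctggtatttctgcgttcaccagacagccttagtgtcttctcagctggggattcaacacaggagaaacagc
Nupr1: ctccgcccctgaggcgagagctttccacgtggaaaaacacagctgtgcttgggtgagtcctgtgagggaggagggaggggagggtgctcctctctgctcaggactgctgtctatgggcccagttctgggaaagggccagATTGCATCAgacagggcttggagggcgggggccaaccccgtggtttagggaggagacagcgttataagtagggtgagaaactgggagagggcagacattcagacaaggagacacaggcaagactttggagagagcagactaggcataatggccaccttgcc

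The remaining stress lists held few calls. Of 20 heat shock chaperone genes, Hspb1 rose (log2 fold change 1.11 ± 0.29; list median 0.39, and 0.18 without the control library of replicate 1), and Hspa1a and Hspa1b were at 1.03 and -0.98. Of 19 NF-kB target and chemokine genes, Nfkbia, the inhibitor of NF-kB, and the cytokine Il1b rose (1.31 ± 0.28 and 1.32 ± 0.38), with a median of 0.32 that was 0.73 without the control library of replicate 1. Of 22 interferon-stimulated genes 0 were called (median 0.10, and 0.31 without that library). The members with the highest mean CPM, Irgm1 and Stat2, were at -0.0034 and 0.21. Of 16 Id and Smad feedback genes, Id1, a target of bone morphogenetic protein signals, rose from 10.5 and 14.0 CPM to 37.4 and 27.4 CPM (1.40 ± 0.31).

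Of 33 nucleotide excision repair genes 0 rose and 1 fell, and the median was -0.07. The member that fell was Mnat1, a subunit of the kinase that accompanies TFIIH (150 kb), from 7.67 and 10.1 CPM to 3.36 and 3.69 CPM (log2 fold change -1.32 ± 0.35, adjusted p = 0.028). The recognition factors Xpc and Ddb2 were at -0.21 and -0.36, Xpa at 0.86, Ercc6 and Ercc8, the transcription-coupled repair factors, at -0.07 and -0.16, and Ercc1 and Ercc4 at 0.38 and 0.03. In copper and platinum transport, Atp7b, a copper exporter, fell from 40.2 and 32.6 CPM to 20.9 and 9.95 CPM (-1.32 ± 0.30, adjusted p = 0.0097), and 12 further genes, the copper importer Slc31a1 (-0.40) among them, were not called. Among 28 genes of mitosis and DNA replication, the proliferation markers Mki67 and Top2a and the repressor E2f8 fell and the ribonucleotide reductase subunit Rrm2 rose (median -0.64, and -0.44 without the control library of replicate 1). E2f8 was at 19.4 and 5.27 CPM in the controls and at 7.24 and 2.03 CPM after cisplatin, so that its groups overlapped, and its value moved from -1.40 to -0.15 (adjusted p = 1) without that library. Mki67 was at 7.98 and 6.35 CPM in the controls and at 3.42 and 2.17 CPM after cisplatin, and Rrm2 at 6.05 and 11.7 CPM against 22.7 and 21.5 CPM. Of 18 growth hormone and insulin-like growth factor genes, Bcl6 rose and Cux2 and Onecut1, transcription factors of liver gene expression, fell, with Cux2 (194 kb) from 63.2 and 27.6 CPM to 7.96 and 8.02 CPM (-2.39 ± 0.33, adjusted p = 3.8e-06; -1.77 without the control library of replicate 1). The groups of Onecut1 overlapped, at 23.2 and 6.58 CPM in the controls and 6.78 and 1.42 CPM after cisplatin, and its value moved from -1.97 to -0.64 (adjusted p = 1) without that library.

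The change after cisplatin followed the length of the gene on the genome. Genes that fell had a median length of 166 kb, genes that rose 7.18 kb and all genes tested 22.7 kb, and 621 of the 794 genes that fell and have an annotated length (78.2%) spanned at least 100 kb, against 12.5% of all genes. Among genes shorter than 10 kb, 3.68% rose and 0.495% fell, with a median log2 fold change of 0.35. Among genes of 10 to 50 kb the median was 0.06, among those of 50 to 100 kb -0.35, and among those of 100 to 200 kb -0.83, where 27.5% fell. Among the 625 genes of at least 200 kb the median was -1.45, 50.4% fell, and 0.16% rose. The order held in each replicate pair alone: the median of the shortest class was 0.17 in pair 1 and 0.54 in pair 2, and that of the longest class -1.37 and -1.51. It also held within genes of exon length above or below the median of 4295 bases and of level above or below the median of 13.3 CPM. In the longest class the median was -1.47 for longer and -0.96 for shorter transcripts, and -1.28 for higher and -1.57 for lower levels. Across genes, the Spearman coefficient of the change was -0.556 with genomic length, -0.383 with exon length and 0.028 with level, and genes are not independent replicates. CPM is relative within a library, so that the shift of short genes above 0 and of long genes below 0 is a difference between them and not a total.

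**Figure D4:**
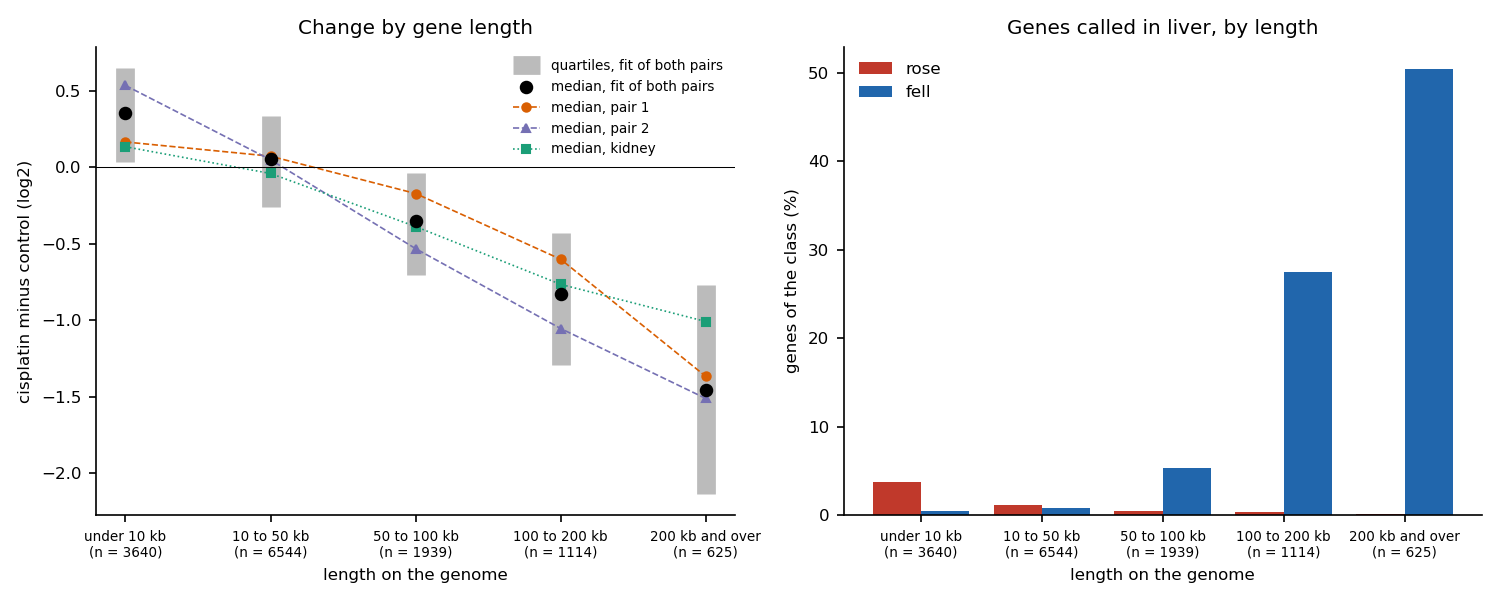
Left, change after cisplatin (log2, y axis) by class of gene length on the genome (x axis): black points are medians of the fit and grey bars its quartiles, and the coloured marks are the medians of pair 1, pair 2 and kidney. Right, percent of the genes of each class that rose (red) or fell (blue) in liver; in the class of 200 kb and over, 50.4% fell and 0.16% rose.

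By annotated span, the longest of the called genes was Fgfr2, a fibroblast growth factor receptor (2961 kb in GENCODE M21). That span may include a transcript model that runs into neighbouring genes, which was not checked. Next were the receptor phosphatase Ptprd (2271 kb), dystrophin (Dmd, 2257 kb), the phosphodiesterase Pde4d (1504 kb) and Naaladl2 (1346 kb), and all 5 genes fell. Ptprd was at 126 and 123 CPM in the controls and at 44.3 and 51.5 CPM after cisplatin (log2 fold change -1.38 ± 0.28, adjusted p = 0.0033). Pde4d was at 3.62 and 3.43 CPM in the controls and at 0.405 and 0.406 CPM after cisplatin (-3.11 ± 0.54, adjusted p = 0.0001). The fitted fall of the longer gene Ptprd was thus smaller, and the groups of both genes were separated. Regulators of small GTPases and signalling scaffolds, a list of long genes with a median of 233 kb, had 26 of 40 members that fell, 0 that rose and a median of -1.63 (-1.19 without the control library of replicate 1), beside -1.45 in the longest class. Dock4, an activator of Rac and Rap (401 kb), fell from 33.2 and 17.2 CPM to 3.30 and 2.23 CPM (-3.14 ± 0.34, adjusted p = 2.2e-08). Trio (295 kb) fell from 16.0 and 11.6 CPM to 2.17 and 1.12 CPM (-3.11 ± 0.37, adjusted p = 1.5e-07), and Tbc1d5 and Srgap2 fell by similar amounts. Sos1 and Git2 of the same list were at -0.09 and -0.01.

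Kidney of the same study, with 2 control and 2 cisplatin libraries of its own, was used to ask which liver changes differed between organs. Of the 220 genes that rose in liver, 82 also rose in kidney and 2 fell there, and of the 795 that fell, 360 also fell in kidney and 0 rose. By the same test 7.99% of the 16075 genes tested were called in kidney, 2.92% higher and 5.07% lower. The median kidney change was 1.04 over the genes that rose in liver (1.52 in liver itself) and -1.14 over those that fell (-1.68 in liver), with the genes chosen on their liver values. The test of the organ-by-treatment interaction called 47 of 16075 genes (0.292%; 0.0809% higher and 0.212% lower in liver) at an adjusted p below 0.05, of which 11 were among the 220 and 5 among the 795, so that for most liver calls a difference between organs was not shown. Without the block within organs it called 1 gene. This test was against 0, whereas the calls in each organ were against 0.4. The labels do not say whether liver and kidney libraries came from the same mice, and the fit treated the organs as separate. Mfsd2a, a transporter of lysophospholipids, rose in liver from 41.8 and 68.4 CPM to 195 and 259 CPM (2.07 ± 0.30) and fell in kidney (-1.34), a difference of 3.42 ± 0.30 (edgeR adjusted p = 0.017). Hdc, the enzyme that makes histamine, rose in liver (1.44 ± 0.35) and fell in kidney (-0.94), with a difference of 2.39 (adjusted p = 0.022). Both genes thus moved in opposite directions in the 2 organs. Cgref1, Baiap2l1 and Adcy1, an adenylate cyclase, rose in liver and did not pass in kidney, with differences of 2.43, 1.94 and 1.97.

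In the other direction, the rise of 3 stress genes was smaller in liver. Plk3 rose by 1.84 in liver and by 6.61 in kidney (difference -4.76 ± 0.28, adjusted p = 0.0027), Atf3 by 2.28 and 6.13 (difference -3.84 ± 0.48, adjusted p = 0.032), and Gdf15 by 1.61 and 5.03 (difference -3.40 ± 0.48, adjusted p = 0.043). All 3 passed in both organs. Insig1 fell in liver (-1.36), and its kidney value was 0.75 (adjusted p of the difference 0.037). Slc15a2, a peptide transporter, and Tenm3, an adhesion protein of 616 kb, fell in liver and did not pass in kidney, with differences of -2.36 and -2.67. Length classes followed the same order in kidney, with medians of 0.13 for the shortest and -1.01 for the longest class.

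**Figure D5:**
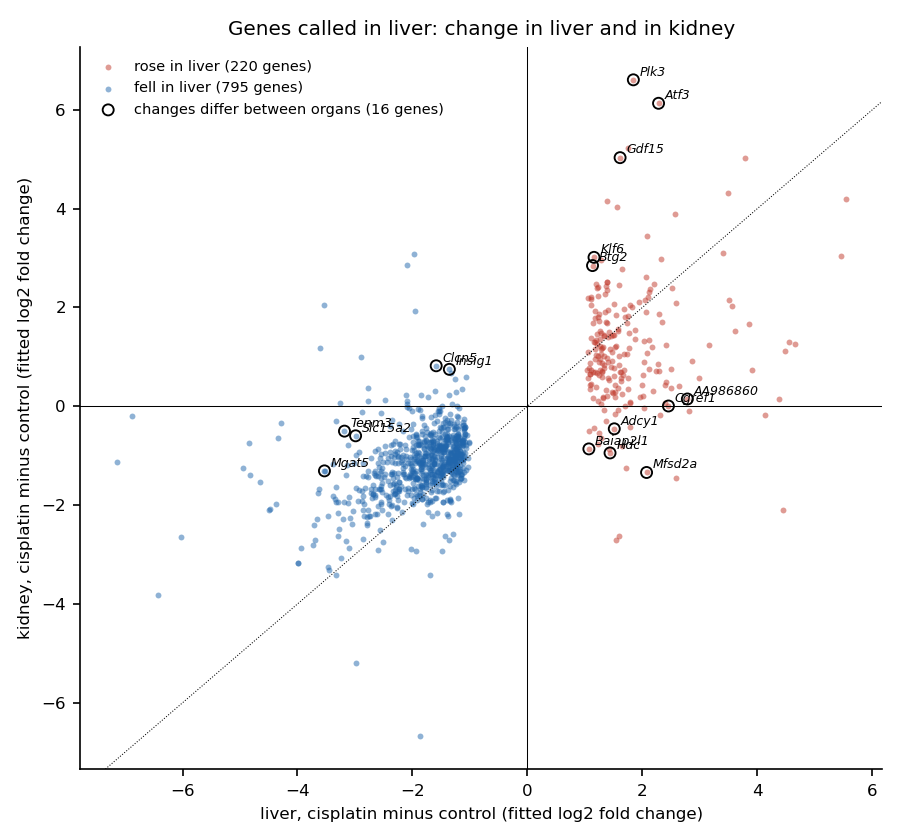
Fitted log2 fold change after cisplatin in liver (x axis) and kidney (y axis) of the 220 genes that rose (red) and the 795 that fell (blue) in liver; the dotted line marks equal change, and circles mark the 16 genes whose change differed between organs. Plk3, Atf3 and Gdf15 lie far above the line, and Mfsd2a and Hdc are above 0 in liver and below 0 in kidney.

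The same genes were also read in 2 liver XR-seq and 2 liver Damage-seq libraries, all from cisplatin-treated mice. XR-seq counts the short oligonucleotides excised by nucleotide excision repair, and Damage-seq counts adducts that remain, each on the transcribed strand and the other strand of a gene. The median log2 ratio of XR-seq reads on the transcribed to the other strand was 4.30 and 3.99 in replicates 1 and 2 for genes that fell, 2.65 and 2.26 for genes that rose, and 2.96 and 2.72 for all genes tested. The ratio was thus higher in both replicates for genes that fell. In RPKM (reads per kb of gene, scaled to the library total), the transcribed strand of genes that fell had a median of 1.31 and 1.26, below the 1.42 and 1.39 of all genes, and that of genes that rose had 2.10 and 1.94. On the other strand the medians were 0.0585 and 0.0723 for genes that fell, 0.305 and 0.383 for genes that rose, and 0.138 and 0.159 for all genes. The higher ratio of genes that fell thus went with a lower level on the other strand, not a higher level on the transcribed strand. In Damage-seq the median log2 ratio of the strands was -0.53 and -0.49 for genes that fell, -1.12 and -1.09 for genes that rose, and -0.89 and -0.83 for all genes, so that the transcribed strand held fewer adducts than the other in every group and the difference was smallest in genes that fell. Only genes with at least 20 reads were used. In Damage-seq these were 158 genes that rose, 787 that fell and 12572 of all tested, and in XR-seq 216, 788 and 13603. Among them, genes that fell had a median of 598 and 354 Damage-seq reads and genes that rose 37 and 22. The part of gene length in these ratios was not tested.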

How the data were processed

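RNA-seq of 2 control and 2 cisplatin-treated livers was analysed from the raw read counts per gene that the authors deposited. Per the labels and the study's methods, they aligned reads to mm10 with STAR, removed reads of low mapping quality or odd orientation and counted with featureCounts. For XR-seq and Damage-seq the authors deposited counts per gene and strand after BWA alignment and Picard duplicate removal. Steps before counting were not repeated. The members, gene lists and tests were chosen with earlier results of these data known.

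Counts were tested with edgeR 4.0.16 in R 4.3.3 (TMM, filterByExpr, quasi-likelihood fit, test against a log2 fold change of 0.4, Benjamini-Hochberg adjusted p below 0.05). The replicate number was a block, because the study treats batch as a known covariate and the file names of replicate 2 carry a letter that those of replicate 1 lack. That this letter marks a sequencing run was inferred and is not stated in the labels. The block left 1 residual degree of freedom. The replicate differences of the 2 groups correlated across genes with a coefficient of 0.390. Pair changes used log2 CPM with a prior count of 2. Liver was compared with kidney by an interaction term tested against 0, with the replicate number as a block within organ. With the block, p-values rest on how far the 2 pair changes of a gene differed, with information shared across genes. They do not measure the full spread between the libraries of a group, since the part common to both groups is taken up by the block. The 2 control libraries differed from each other by more than sampling noise, as did the 2 cisplatin libraries (chi-square over degrees of freedom 349 and 241). Lengths came from GENCODE M21 (25041 genes matched) and promoters from RefSeq. XR-seq and Damage-seq ratios used genes with at least 20 reads. The reads per library, given with the results, limit genes of few reads. The edgeR and DESeq2 fits were run on simulated counts with planted changes. The replicate effect was built into these counts, so they cannot decide whether the block suits the real libraries.

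Named were, among called protein-coding genes with a mean of at least 1 CPM and 1 sign in both pairs, the 15 at either extreme of log2 fold change, up to 4 called members per list and direction with the smallest adjusted p (or the 2 highest in level where none was called), the 5 longest called genes, and the 5 genes in each direction with the smallest p for liver against kidney. Other members were named after their values were seen. Alternatives were DESeq2 1.42.0, no block, RLE factors, a test against 0, no filter, single libraries left out, crossed pairs, levels of at least 10 CPM and at least 50 reads. Genes of the lists that are not in the files were not analysed here, and some called members are counted but not reported here by name.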

Additional observations from a re-analysis of the deposited data

Results flagged for a closer look

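The change after cisplatin differed between liver and kidney, by the organ-by-treatment interaction of edgeR's quasi-likelihood test (adjusted p below 0.05), for 13 of the genes named above. The difference (liver minus kidney, log2) was above 0 for Mfsd2a (3.42), AA986860 (2.63), Cgref1 (2.43), Hdc (2.39), Adcy1 (1.97) and Baiap2l1 (1.94), all of which rose in liver. It was below 0 for Plk3 (-4.76), Atf3 (-3.84) and Gdf15 (-3.40), which rose in both organs, and for Tenm3 (-2.67), Slc15a2 (-2.36), Mgat5 (-2.21) and Insig1 (-2.10), which fell in liver. Mgat5, a glycosyltransferase of 283 kb, also fell in kidney (-1.31), whereas Insig1 was at 0.75 there without passing. Without the replicate block within organs 1 gene passed, so these differences rest on the block.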

How the results depend on the processing

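The number of genes called in liver depended on the replicate block more than on any other choice tried: 1015 genes with it and 0 without it, at the same threshold. Tested against 0 rather than 0.4, edgeR called 1526 genes with the block (403 higher) and 0 without it, where 1622 had an unadjusted p below 0.05. DESeq2 called 364 with the block (64 higher, 300 lower) and 188 without it (27 higher, 161 lower). Of the members of the 25 lists 0 rose and 0 fell without the block, and 1 gene differed between liver and kidney without it. Leaving out single libraries, without the block and with the lone library assumed to vary like the other group, gave 22 to 1840 calls (4 to 553 higher, 18 to 1287 lower). The lowest count was without control replicate 1, with 82 (15 higher, 67 lower) without control replicate 2, 352 (57 higher, 295 lower) without cisplatin replicate 2 and the highest without cisplatin replicate 1. Without control replicate 1, 220 of the 220 genes that rose and 791 of 794 that fell in that fit kept their sign, with medians of 1.51 and -1.51. The genes had been called from data that include the libraries of that fit, so a kept sign is no separate check. RLE factors gave 978 calls, no filter 1033 and a joint fit with kidney 888, and RLE moved the median of all genes by 0.03. Of the 96 named genes, 92 were called. Of these, 34 lost their call with DESeq2, 1 with RLE and all 92 without the block, and none of these turned its sign. Cyp26a1 turned to 0.0831 without control replicate 2. In an alternative added after the values were seen, the list medians without control replicate 1 turned sign for acute phase genes (0.19), cytochrome P450 genes (-0.10) and stress response genes (-0.22). Crossed pairs gave coefficients of 0.149 (Pearson) and 0.0528 (Spearman) and 48.2% of equal sign, and genes of at least 10 CPM gave 0.568, 0.549 and 69.2%. Length class medians kept their sign: genes of 10 to 50 kb were at 0.0875 with RLE and 0.0733 in pair 1, and genes of at least 200 kb at -1.33 from 10 CPM. With at least 50 reads the Damage-seq ratio of genes that rose was -1.08 against -1.10. The causes were not tested. With 2 libraries per group, few reads limit weak genes.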

Other observations

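Gene families outside the lists that were picked by symbol after their values were seen are described here without a test. Of the 220 genes that rose, 27 are not annotated as protein coding, as are 12 of the 795 that fell. Of the 13868 genes tested, 12991 are protein coding. The share that rose was 1.59% of all genes tested and 1.49% of protein-coding genes. Host genes of small nucleolar RNAs were among the 27. Of 12 Snhg genes tested 4 rose and 0 fell, 12 were above 0, and the median log2 fold change was 1.21. Snhg1 was at 5.93 and 3.12 CPM in the controls and at 16.1 and 22.0 CPM after cisplatin (log2 fold change 2.12 ± 0.35, edgeR adjusted p = 0.00011). Gas5, Zfas1 and Epb41l4aos, further hosts of small nucleolar RNAs, rose by 1.08, 1.43 and 1.61. The Snhg genes are short, with a median of 2.96 kb, and the median of all genes under 10 kb was 0.35.

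Beta-tubulin genes, which encode the subunits of microtubules, had 4 of 7 members that rose and 0 that fell. Tubb2a was at 98.2 and 241 CPM in the controls and at 355 and 1137 CPM after cisplatin (log2 fold change 2.05 ± 0.33, adjusted p = 7.3e-05), and Tubb6, Tubb2b and Tubb4b rose by 1.51, 2.40 and 1.18. The median kidney change of the family was 1.24. Of 79 ribosomal protein genes 0 were called, while 78 were above 0, 75 were higher in both pairs and the median was 0.66, on a scale that is relative within each library. Of 18 phosphodiesterase genes 6 fell and 0 rose, with a median of -0.84. They include Pde7b, which breaks down cyclic AMP and went from 8.49 and 6.80 CPM to 1.30 and 0.880 CPM (-2.82 ± 0.41, adjusted p = 8.0e-06), and Pde3b, which went from 99.1 and 77.0 CPM to 49.0 and 23.4 CPM (-1.37 ± 0.28). The median length of the phosphodiesterase genes was 122 kb, where the class of 100 to 200 kb had a median of -0.83.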
